A study of Saccharomyces cerevisiae with 12 samples.

Results

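FRE1 to FRE6 encode ferric reductases, membrane enzymes of budding yeast that reduce iron and copper. They were taken by standard name and not by a cut on measured values, though earlier results of these data were known. They are 6 of the 6660 genes measured by mRNA sequencing in 12 libraries of Saccharomyces cerevisiae. All libraries come from the BY4741 background, a haploid laboratory strain, and all but 2 from cells in YPD, a rich glucose medium, collected in exponential growth at an OD600 of 0.8 to 1. Wild type (WT) in YPD and mmm1Δ have 2 libraries each. The deletion strains sam37Δ and mdm34Δ, the point mutants AFT1-C291F and VPS13-D716H, and the double mutants VPS13-D716H sam37Δ and VPS13-D716H mmm1Δ have 1 library each. So do WT cells in clean YPD, a medium named but not described by the labels, and WT cells given 100 µM bathophenanthroline disulfonate (BPS) in it for 4 hours. Mmm1 and Mdm34 are subunits of ERMES, a complex that tethers the endoplasmic reticulum to mitochondria, and the deletions remove the genes for them. Sam37 belongs to the sorting and assembly machinery of the mitochondrial outer membrane. Vps13 is a lipid transfer protein at organelle contacts, of which the D716H allele is known to relieve defects of ERMES mutants. AFT1-C291F, which the labels also call Aft1-1up, is an activated allele of the iron regulator Aft1, and BPS is an iron chelator. The labels do not say whether the point alleles replaced the chromosomal genes.

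Iron reaches yeast as insoluble ferric iron or bound to siderophores, small chelators made by other microbes. Surface reductases can turn it into the ferrous form, which some of the transporters accept. Fre1 and Fre2 are the main reductases of the cell surface for iron and copper. Fre3 and Fre4 act on siderophore-bound iron. Fre6 works at the vacuole, where it reduces stored metal for export, and Fre5 has been placed in mitochondria with a role that is less clear. These enzymes carry heme and a flavin and take their electrons from NADPH. When iron is short, Aft1 binds sites upstream of iron uptake genes and turns them on, while Mac1 does the same for genes of copper uptake and FRE1.

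The upstream stretches that hold the sites searched for are shown here because the members differ in them. These letter strings were looked up on both strands in the RefSeq genome of assembly R64: CACCC, the core of the Aft1 site, TGCACCC, a longer form that contains it, and TTTGCTC, the Mac1 site. Capitals mark these strings, or their reverse complements GGGTG and GGGTGCA, in otherwise lower-case sequence. Each stretch runs 5′ to 3′ toward its gene, starts 30 bases before the first match and ends 30 after the last, up to 300 bases, and overlaps no annotated gene. That limit leaves out a further CACCC of FRE5, which starts 14 bases upstream of its coding sequence.
FRE1 (chrXII:568251-568507, plus strand): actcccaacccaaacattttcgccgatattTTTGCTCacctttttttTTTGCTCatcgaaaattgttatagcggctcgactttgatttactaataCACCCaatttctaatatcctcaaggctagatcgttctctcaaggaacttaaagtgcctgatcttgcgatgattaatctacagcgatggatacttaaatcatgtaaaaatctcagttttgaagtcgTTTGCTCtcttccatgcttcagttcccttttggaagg
FRE2 (chrXI:11456-11686, minus strand): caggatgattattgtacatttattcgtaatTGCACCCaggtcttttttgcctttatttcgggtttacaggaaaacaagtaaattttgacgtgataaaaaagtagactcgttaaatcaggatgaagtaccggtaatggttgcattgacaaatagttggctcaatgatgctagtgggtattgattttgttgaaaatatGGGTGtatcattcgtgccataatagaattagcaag
FRE3 (chrXV:1055088-1055325, plus strand): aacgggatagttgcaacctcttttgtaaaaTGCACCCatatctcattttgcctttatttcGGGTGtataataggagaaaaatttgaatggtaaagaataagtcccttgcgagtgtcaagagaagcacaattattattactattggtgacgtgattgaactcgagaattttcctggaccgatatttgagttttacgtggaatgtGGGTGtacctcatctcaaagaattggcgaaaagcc
FRE4 (chrXIV:739484-739550, plus strand): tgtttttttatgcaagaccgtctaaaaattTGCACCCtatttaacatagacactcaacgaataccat
FRE5 (chrXV:1061203-1061502, plus strand): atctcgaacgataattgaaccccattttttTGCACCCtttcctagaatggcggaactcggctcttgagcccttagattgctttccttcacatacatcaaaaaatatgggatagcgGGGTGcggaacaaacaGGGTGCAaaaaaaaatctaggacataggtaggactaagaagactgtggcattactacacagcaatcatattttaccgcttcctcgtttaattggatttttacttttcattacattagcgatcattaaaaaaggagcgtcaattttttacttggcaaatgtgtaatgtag
FRE6 (chrXII:39577-39668, minus strand): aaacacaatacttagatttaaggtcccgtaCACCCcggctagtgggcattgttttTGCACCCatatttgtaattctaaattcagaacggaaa

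Counted back from the first base of the coding sequence, TGCACCC started 430 bases upstream of FRE2, 427 upstream of FRE3, 437 upstream of FRE4 and 142 upstream of FRE6. FRE5 held it at 331 bases and, on the other strand, at 230 bases. FRE1 held the core CACCC at 221 bases, preceded by ta and not tg, and 3 copies of TTTGCTC at 286, 269 and 96 bases. In the 600 bases upstream, TGCACCC was thus present in 5 of the 6 genes and in 2.68% of 5999 genes searched the same way. TTTGCTC was present in 1 of the 6 and in 10.2% of those genes, and CACCC in all 6 and in 39.1%. In a window from 250 bases before to 50 after the start, CACCC was in 3 members and 20.0% of 6001 genes, TGCACCC in 2 members and 1.30%, and TTTGCTC in 1 member and 5.43%. The longer window was chosen after the shorter one had been searched. Other forms of the Aft1 site were not searched for, so a gene without TGCACCC may still hold one. A match is a string of letters and not a measured binding site.

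**Figure D1:**
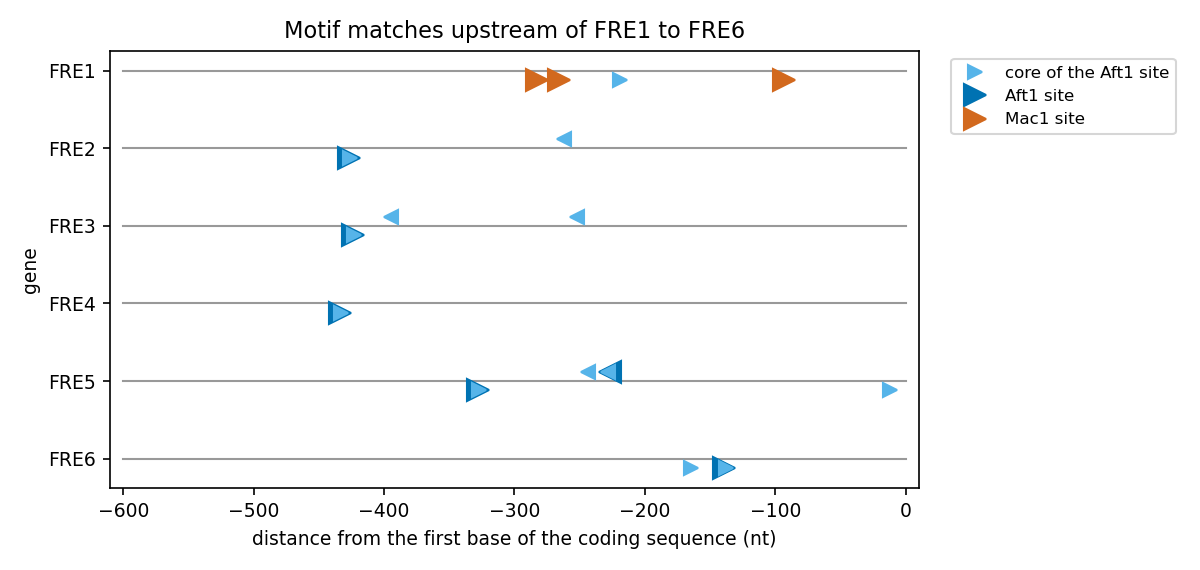
Matches to CACCC (core of the Aft1 site), TGCACCC (Aft1 site in the legend) and TTTGCTC (Mac1 site) in the 600 bases upstream of each gene. The x axis is the distance in nucleotides from the first base of the coding sequence. Triangles point in the direction of the strand that holds the string. FRE1 is the member with TTTGCTC and without TGCACCC.

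FRE1 (YLR214W) lies on chromosome XII at 568567 to 570627 in build sacCer3, 507.6 kb from the nearest chromosome end. The other members are all within 42.2 kb of an end. FRE2 (YKL220C) is on chromosome XI at 9091 to 11226, FRE3 (YOR381W) on XV at 1055545 to 1057680 and FRE4 (YNR060W) on XIV at 739951 to 742110. FRE5 (YOR384W) is on XV at 1061564 to 1063648 and FRE6 (YLL051C) on XII at 37333 to 39471. Each is a single coding exon, of 2061 nt in FRE1 to 2160 nt in FRE4, and encodes a protein of 686 to 719 residues. Fre2 and Fre3 are the closest pair, identical at 76.0% of aligned residues, and Fre4 shares 55.7% with Fre2 and 55.0% with Fre3. Fre1 stands farther off, at 21.3 to 25.1% from the other members. FRE2 and FRE3 also share an identical run of 19 bases upstream, ttttgcctttatttcgggt, which starts 416 bases before FRE2 and 412 before FRE3. Little of the coding sequence could draw reads of another member: 0.521% of 25-base windows of FRE2 and of FRE3 occur elsewhere in the genome, while no such window of the other members and no 50-base window of any member does.

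The deposited values are FPKM, fragments scaled to gene length and to the mapped total, in 3 tables taken as normalized separately. The mdm34Δ library and replicate 1 of mmm1Δ and of WT make up the first table, 7 libraries with WT replicate 2 as their control the second, and both clean YPD libraries the third. The median gene had an FPKM of 12.3 to 15.5 in libraries of the first table, 40.2 to 44.3 in those of the second and 50.4 to 52.2 in those of the third, so ratios were taken within a table. MMM1 was listed at 0 in the 3 mmm1Δ libraries, MDM34 in mdm34Δ and SAM37 in both sam37Δ libraries. Markers of MATa cells, the mating type of BY4741, summed to 13726 to 112846 per library, and those of MATα cells to 17.0 to 65.3. The point alleles cannot be read from these values, and the depth of the libraries is unknown.

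FRE1, the surface reductase with Mac1 strings upstream, was at an FPKM of 2.88 in WT replicate 1, 14.8 in mmm1Δ replicate 1 and 24.2 in mdm34Δ. Among libraries of the second table AFT1-C291F came first at 178.6, then mmm1Δ replicate 2 at 43.1, VPS13-D716H sam37Δ at 40.2, sam37Δ at 38.2, VPS13-D716H at 37.8, WT replicate 2 at 14.1 and VPS13-D716H mmm1Δ at 8.59. It went from 46.1 in clean YPD to 200.9 with BPS. VPS13-D716H mmm1Δ was the one library in which FRE1 lay below the WT of its table. The levels from 37.8 to 43.1 rest on 1 library each, so their order has no error to be judged by.

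FRE2, the other surface reductase, was the lowest member in each WT library without BPS, at 0.768 in WT replicate 1, 3.19 in WT replicate 2 and 5.75 in clean YPD. With BPS it was at 219.6, the highest member of that library, and in AFT1-C291F at 87.7. Elsewhere in the second table mmm1Δ replicate 2 had 12.4, sam37Δ 9.58, VPS13-D716H sam37Δ 7.24, VPS13-D716H 3.48 and VPS13-D716H mmm1Δ 3.22, and the first table had 2.82 in mmm1Δ replicate 1 and 3.14 in mdm34Δ. Placed among all genes, FRE2 was above 4.16 to 7.12% of them in the WT libraries without BPS, above 68.5% in AFT1-C291F and above 82.9% with BPS.

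FRE3, a reductase of siderophore-bound iron, was at 2.92 in WT replicate 1 against 15.5 in mdm34Δ and 15.9 in mmm1Δ replicate 1. In the second table AFT1-C291F had 95.9, mmm1Δ replicate 2 had 36.0, sam37Δ 34.1, VPS13-D716H sam37Δ 34.04, VPS13-D716H mmm1Δ 11.99, VPS13-D716H 11.2 and WT replicate 2 had 7.66. It was at 19.4 in clean YPD and 97.9 with BPS. The second table thus split into a low set with WT and both VPS13-D716H libraries that keep SAM37, a middle set of 3 deletion libraries, and AFT1-C291F.

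FRE4, the other reductase of siderophore iron, followed another order. Its FPKM was 2.83 in mdm34Δ, 3.67 in mmm1Δ replicate 1 and 3.87 in WT replicate 1. In the second table the lowest was 8.40 in sam37Δ, followed by 8.58 in mmm1Δ replicate 2, 9.58 in VPS13-D716H sam37Δ, 10.8 in VPS13-D716H, 11.03 in WT replicate 2, 11.6 in VPS13-D716H mmm1Δ and 92.1 in AFT1-C291F. With BPS it was at 27.2 against 13.4 in clean YPD. Every library without MMM1, MDM34 or SAM37 had a lower FRE4 level than the WT of its table except VPS13-D716H mmm1Δ, and AFT1-C291F stood far above the rest.

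FRE5, whose product has been placed in mitochondria, was at 4.18 in WT replicate 1, 16.5 in mmm1Δ replicate 1 and 16.6 in mdm34Δ. The second table ran from WT replicate 2 at 12.8 through VPS13-D716H at 15.9, VPS13-D716H mmm1Δ at 19.8, mmm1Δ replicate 2 at 30.5, VPS13-D716H sam37Δ at 33.6 and sam37Δ at 34.2 to AFT1-C291F at 54.04. It was at 36.2 in clean YPD and 70.1 with BPS. All 8 libraries of mutants were above the WT of their table, and those 3 of the second table with a deletion and high FRE3 were again close together.

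FRE6, the vacuolar reductase, was the most abundant member in 10 of the 12 libraries. It was at 21.9 in WT replicate 1, 44.7 in mdm34Δ and 55.4 in mmm1Δ replicate 1, and at 72.9 in clean YPD and 188.7 with BPS. In the second table AFT1-C291F had 149, sam37Δ 103.7, VPS13-D716H sam37Δ 100.4, mmm1Δ replicate 2 92.2, VPS13-D716H 49.1, WT replicate 2 39.1 and VPS13-D716H mmm1Δ 38.3. FRE1 exceeded it in AFT1-C291F, and FRE1 and FRE2 with BPS. Only WT and mmm1Δ have a second library, from another table, so no spread could be set against the gaps between neighbours in these orders. Between the WT libraries FRE1, FRE3, FRE4 and FRE5 changed places, while FRE6 stayed first and FRE2 last.

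**Figure D2:**
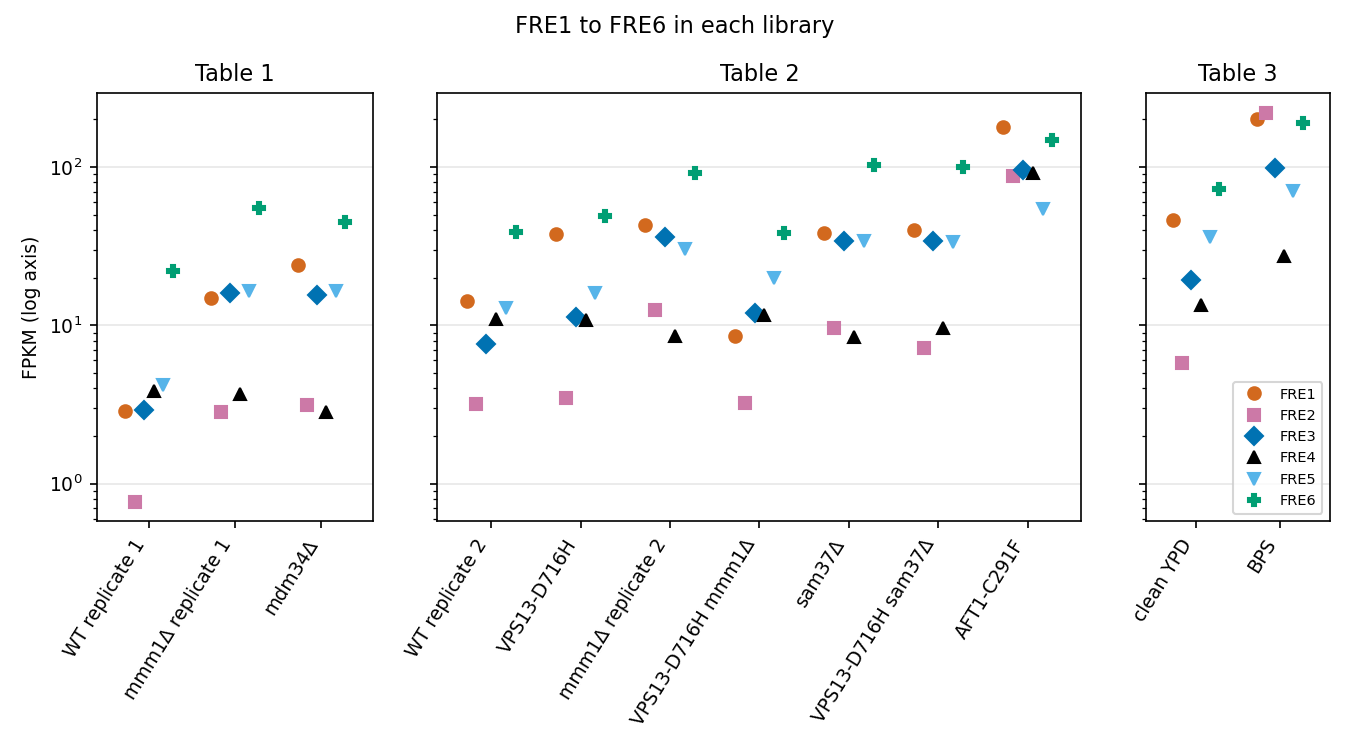
FPKM of the 6 genes in each of the 12 libraries on a log axis, 1 point for each gene and library and 1 panel for each separately normalized table. FRE6 is the highest point in 10 libraries, FRE2 climbs from 5.75 to 219.6 with BPS, and FRE4 stays between 8.40 and 11.6 in the second table apart from 92.1 in AFT1-C291F.

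Loss of MMM1 bears on the question in the series' title, the part of the contact between endoplasmic reticulum and mitochondria in iron balance. FRE1, FRE2, FRE3, FRE5 and FRE6 were higher in both mmm1Δ libraries than in the WT of the same table, and FRE4 was slightly lower in both. FRE3 was the steadiest, with log2 ratios of (FPKM + 1) of 2.11 in the first pair and 2.10 in the second. FRE1 had 2.02 and 1.54, FRE2 had 1.11 and 1.68, FRE5 had 1.75 and 1.19, and FRE6 had 1.30 and 1.22. FRE4 was at -0.06 and -0.33. In the first pair 5 members were at least 2-fold higher, where 8.28% of 5038 genes were, and in the second pair 5 members again, where 8.57% of 6222 genes were. These shares count genes whose FPKM averaged 5 or more over the pair, which FRE2 and FRE4 did not reach in the first pair. FRE1, FRE3 and FRE5 reached it there through mmm1Δ, since each was below 5 in WT replicate 1. FRE2 reached it in the second pair through mmm1Δ as well, being at 3.19 in WT replicate 2.

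With both pairs in one limma fit and the table as a block, 3 of the 5 members tested rose. FRE3 rose by 2.10 ± 0.30 (moderated SE, n = 2 pairs, limma adjusted p = 0.00599), FRE1 by 1.78 ± 0.31 (adjusted p = 0.0162) and FRE5 by 1.47 ± 0.31 (adjusted p = 0.0391). FRE6 was at 1.26 ± 0.32 (adjusted p = 0.0709) and FRE4 at -0.19 ± 0.32 (adjusted p = 0.812), and neither passed. FRE2, with a mean FPKM of 4.81 over the 4 libraries, was just under the filter and was not tested. Its mean ratio was 1.40. Over all 6029 genes tested 165 rose, which is 2.74%, and 61 fell. The calls of FRE1, FRE3 and FRE5 were lost with no filter (adjusted p of 0.160, 0.127 and 0.212) and with a trend of the ratio with abundance removed (0.0742, 0.0518 and 0.118), and FRE5 missed with a pseudocount of 5 (0.0644) while FRE6 passed with 0.1 (0.0340). Bulk libraries cannot tell more transcript per cell from more cells that express a gene.

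Mdm34 sits on the mitochondrial side of the same tether, and its library shares WT replicate 1 with the first mmm1Δ pair. FRE1 was higher in mdm34Δ by 2.70 on the log2(FPKM + 1) scale, an FPKM ratio of 8.41, the largest of the family there. FRE3 was higher by 2.07, FRE5 by 1.76 and FRE2 by 1.23, while FRE6 was just short of 2-fold at 0.99 and FRE4 was at -0.35. That is 4 members past 2-fold, beside 11.8% of 5136 genes. FRE2 and FRE4 were below the filter, and FRE1, FRE3 and FRE5 passed it through mdm34Δ, so the share is not over genes chosen the same way. With an abundance trend removed FRE2 was at 0.26 and FRE4 at -1.10, past 2-fold lower, and with a pseudocount of 5 FRE1 was at 1.89. The single mdm34Δ library, like every group below, has no replicate check.

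Deletion of SAM37 leaves the genes MMM1 and MDM34 in place and removes a subunit of another complex of the mitochondrial outer membrane. Whether ERMES itself was altered in sam37Δ was not measured. FRE4 aside, every member was higher: FRE3 was higher than in WT replicate 2 by 2.02, FRE6 by 1.39, FRE1 by 1.37, FRE5 by 1.35 and FRE2 by 1.34, all log2 ratios of (FPKM + 1). FRE4 was at -0.36. These are 5 members past 2-fold, against 6.32% of 6198 genes, a filter that FRE2 passed through sam37Δ. The summed FPKM of the family was 228 in sam37Δ, 223 in mmm1Δ replicate 2 and 87.9 in WT replicate 2, the control that both deletions share.

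VPS13-D716H was combined with each deletion, so its effect on the reductases can be read in 3 backgrounds, 1 library to each. With MMM1 and SAM37 in place the allele went with a higher level of FRE1 and little else: FRE1 was at 1.36 over WT replicate 2, an FPKM ratio of 2.68, and the other members were between -0.02 for FRE4 and 0.50 for FRE3. FRE1 was the 1 member past 2-fold, where 2.21% of 6160 genes were. Of all genes that passed the filter, 98.8% had a lower ratio than FRE1.

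In mmm1Δ the allele went the other way for most of the family. Against mmm1Δ replicate 2, VPS13-D716H mmm1Δ was lower by an FPKM ratio of 0.200 for FRE1, 0.259 for FRE2, 0.333 for FRE3, 0.416 for FRE6 and 0.648 for FRE5. The log2 ratios of (FPKM + 1) were -2.20, -1.67, -1.51, -1.24 and -0.60 in the same order. FRE4 was at 0.40. Past 2-fold were 4 members, all lower, beside 21.5% of 6245 genes in either direction, 751 of them lower and 589 higher. FRE2 passed the filter through mmm1Δ replicate 2. The double mutant was within 2-fold of WT in every member: against WT replicate 2 no member was past 2-fold, where 23.2% of 6216 genes were in either direction. FRE5 was at 0.59, FRE3 at 0.58, FRE4 at 0.07, FRE2 at 0.01, FRE6 at -0.03 and FRE1 at -0.66. The family's sum was 93.5 against 87.9 in WT.

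FRE1 differed most between the VPS13 alleles with MMM1 and SAM37 in place and in mmm1Δ, but not in sam37Δ. It was higher than WT in VPS13-D716H and in mmm1Δ, yet lower than WT with both. Against the VPS13-D716H library, the double mutant had FRE1 at -2.02, the 1 member past 2-fold lower where 12.1% of 6229 genes were. A count of 1 of the 6 members is near that share. The remaining members lay between -0.35 for FRE6 and 0.29 for FRE5. Among 6 genes of copper uptake and Mac1 control, none was past 2-fold in VPS13-D716H over WT replicate 2, and their median was 0.13. CTR1, the high-affinity copper transporter gene, was at 0.76 there and at -1.02 in the double mutant over VPS13-D716H. In that last comparison IRC7 was at -1.39 and REE1 at 1.02, and the other 3 were within 2-fold. Elsewhere CTR1 lay between -1.01 in VPS13-D716H mmm1Δ over mmm1Δ replicate 2 and 2.13 in mdm34Δ. It was at 1.05 with BPS and 0.30 in AFT1-C291F. No difference between these single libraries was tested.

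In sam37Δ the allele went with smaller differences. VPS13-D716H sam37Δ over sam37Δ was between -0.36 for FRE2 and 0.17 for FRE4 on the log2(FPKM + 1) scale, and no member was past 2-fold, where 2.20% of 6189 genes were. FRE1 was at 0.07, FRE3 at -0.00, FRE5 at -0.03 and FRE6 at -0.05. Over WT replicate 2 the double mutant therefore had FRE3 at 2.02, FRE1 at 1.44, FRE6 at 1.34 and FRE5 at 1.33, with FRE2 at 0.97 and FRE4 at -0.19. That is 4 members past 2-fold, beside 6.81% of 6209 genes, and FRE2 again passed the filter through the mutant.

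**Figure D3:**
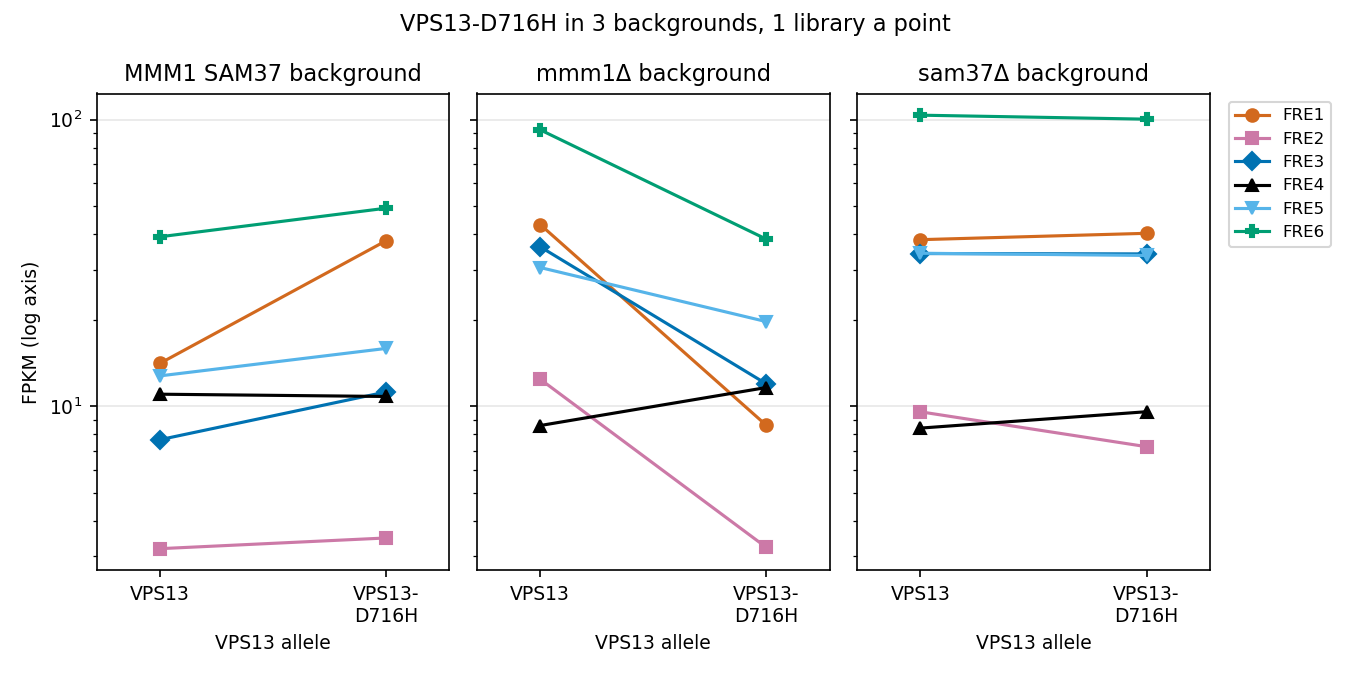
FPKM of the 6 genes, log axis, with the VPS13 and the VPS13-D716H allele in 3 backgrounds of the second table, 1 library a point and a line for each gene. FRE1 goes from 14.1 to 37.8 with MMM1 and SAM37 in place, from 43.1 to 8.59 in mmm1Δ and from 38.2 to 40.2 in sam37Δ.

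AFT1-C291F, with Aft1 active whatever the iron supply, was the library with the broadest reductase response. All 6 members were past 2-fold over WT replicate 2, where 15.6% of 6174 genes were, FRE2 passing the filter through AFT1-C291F. FRE2 led at an FPKM ratio of 27.5, followed by FRE1 at 12.6, FRE3 at 12.5, FRE4 at 8.35, FRE5 at 4.23 and FRE6 at 3.81. Their log2 ratios of (FPKM + 1) were 4.40, 3.57, 3.48, 2.95, 1.998 and 1.90, and that of FRE2 was 3.50 with a pseudocount of 5. The median of the 6 was 3.22 and that of all genes -0.09. FRE4 lay between -0.36 and 0.97 in the other 11 comparisons. With BPS it was just past 2-fold at a pseudocount of 0.1 (1.01) or with an abundance trend removed (1.02).

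BPS binds iron in the medium, and the library of WT cells given it was compared with that of clean YPD. Whether these cells were short of iron is not given by the data. FRE2 was higher with BPS by an FPKM ratio of 38.2, FRE3 by 5.06, FRE1 by 4.36, FRE6 by 2.59, FRE4 by 2.03 and FRE5 by 1.93. On the log2(FPKM + 1) scale these were 5.03, 2.28, 2.10, 1.36, 0.97 and 0.93, so 4 members were past 2-fold, where 3.18% of 6262 genes were. FRE2 exceeded the ratio of 99.7% of genes that passed the filter. BPS and AFT1-C291F, which share no library, both had FRE2 first, while FRE4 had a log2 ratio of 2.95 in AFT1-C291F and 0.97 with BPS. That difference lies between single libraries of separate tables and was not tested. The median log2 ratio of the 6 genes was 1.73 with BPS, 1.52 and 1.38 in the mmm1Δ pairs, 1.49 in mdm34Δ, 1.36 in sam37Δ and 1.33 in VPS13-D716H sam37Δ over WT, 0.31 in VPS13-D716H and 0.04 in VPS13-D716H mmm1Δ. The median of all genes lay between -0.09 and 0.03 in the 12 comparisons.

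**Figure D4:**
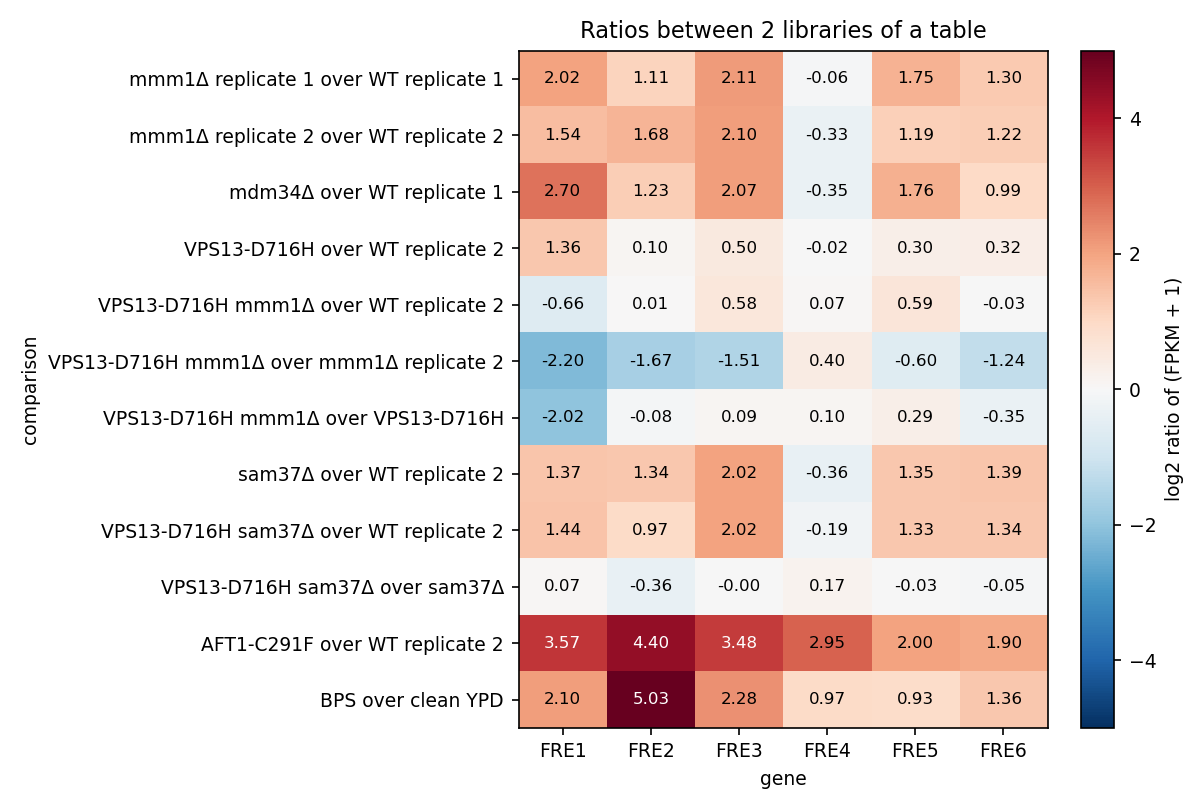
Log2 ratios of (FPKM + 1) of each gene in the 12 comparisons of 1 library with another of its table, red for higher and blue for lower, with the value in each cell. The FRE4 column stays between -0.36 and 0.97 outside AFT1-C291F, and the FRE1 column turns from 1.36 in VPS13-D716H to -0.66 with mmm1Δ added.

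The make-up of the family moved with these shifts. FRE6 held 60.0% of the summed FPKM of the 6 genes in WT replicate 1, 44.5% in WT replicate 2 and 37.6% in clean YPD, against 22.7% in AFT1-C291F and 23.5% with BPS. FRE2 held 2.10, 3.63 and 2.97% in the same WT libraries, 13.3% in AFT1-C291F and 27.3% with BPS. The share of the vacuolar enzyme was thus smallest in the libraries with the highest sums, 657 in AFT1-C291F and 804 with BPS. FRE4 held 10.6 and 12.6% in the WT libraries in YPD but 2.65% in mdm34Δ, 3.37 and 3.85% in mmm1Δ, 3.68% in sam37Δ and 14.0% in AFT1-C291F. In the third table its share was 6.94% in clean YPD and 3.38% with BPS. FRE1 held 29.5% in VPS13-D716H, the largest share it had in any library, and 9.19% in VPS13-D716H mmm1Δ.

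**Figure D5:**
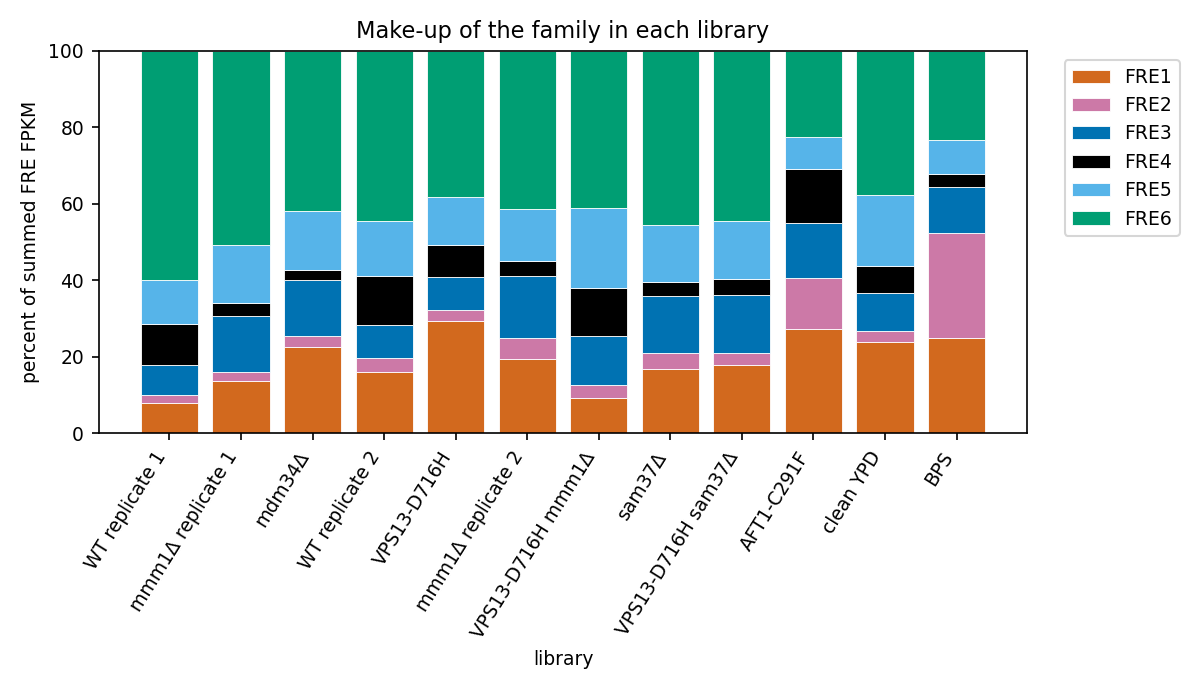
Share of each gene, in percent, in the summed FPKM of FRE1 to FRE6 for the 12 libraries, which come from 3 separately normalized tables. The FRE6 share runs from 60.0% in WT replicate 1 to 22.7% in AFT1-C291F, and the FRE2 share is 27.3% with BPS.

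Likeness of pattern was measured as Pearson's r over the 12 libraries, on log2(FPKM + 1) minus the mean of its table, among 6268 genes whose FPKM averaged 5 or more. The libraries share tables and controls, so r is a description. FRE3, FRE5 and FRE6 had the highest r among the members, 0.975 for FRE3 and FRE6, 0.967 for FRE3 and FRE5, and 0.933 for FRE5 and FRE6. FRE1 came close, at 0.905 with FRE3, 0.894 with FRE6 and 0.855 with FRE5. FRE2 was at 0.890 with FRE3, 0.848 with FRE6, 0.841 with FRE1 and 0.764 with FRE5. FRE4 had r between 0.428 and 0.724 with the other members. Without the AFT1-C291F library, a check added after the data had been seen, FRE4 had r between -0.13 and 0.48 with them, while FRE3 and FRE6 were at 0.972.

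The 3 genes most like each member included several of iron and copper transport. For FRE3 they were CCC2, a copper pump that loads Fet3, at 0.990, the siderophore transporter gene SIT1 at 0.983 and PCA1 at 0.981. For FRE6 they were FRE3, the cell wall gene FIT1 at 0.969 and CCC2 at 0.968, and for FRE2 they were PLB2 at 0.949, SRO77 at 0.941 and FET3, the multicopper oxidase of iron uptake, at 0.924. FRE1 was most like YOL075C at 0.971, AKR2 at 0.959 and YPP1 at 0.949, and FRE5 most like FRE3, AKR1 and DIN7 at 0.967 each. FRE4 was most like the fatty acid synthase gene FAS1 at 0.977, TCB3 at 0.963 and SEC8 at 0.956, which were at 0.809, 0.414 and 0.488 without AFT1-C291F.

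Partner genes of the reductases were counted by lists. The ferrous iron made at the surface is taken up by the oxidase Fet3 and the permease Ftr1, which need copper brought by Ccc2 and Atx1. Of these 4 genes none was called in mmm1Δ by limma, and 3 had an unadjusted p under 0.05, as did 19.0% of the 6029 genes tested. CCC2 was at 1.60 and 1.25 in the first and second pair (mean 1.43, limma adjusted p = 0.0502) and FET3 at 1.26 and 2.33 (mean 1.80, 0.0659). The pairs differed widely for FTR1, at 0.59 and 2.31 (mean 1.45, 0.192), and in direction for ATX1, at -0.38 and 2.33 (mean 0.98, 0.486). The WT libraries differed for both genes. FTR1 was at an FPKM of 1015 in WT replicate 1 and 127 in WT replicate 2, and ATX1 at 3201 and 349. The median gene went the other way, at 12.3 and 41.5. In mmm1Δ FTR1 was at 1525 and 633, and ATX1 at 2456 and 1763. Past 2-fold higher were 4 of 4 with BPS (beside 3.18% of genes), in AFT1-C291F (15.6%) and in mmm1Δ replicate 2 (8.57%). In VPS13-D716H 2 of 4 were (2.21%), and 3 of 4 in sam37Δ (6.32%) and in VPS13-D716H sam37Δ over WT (6.81%). None of the 4 was past 2-fold in VPS13-D716H mmm1Δ over WT replicate 2, where 23.2% of genes were in either direction. Over mmm1Δ replicate 2, 3 of 4 were past 2-fold lower in that double mutant, where 751 of 6245 genes were. Of the 3 that passed the filter in the first table, 1 was past 2-fold higher in mmm1Δ replicate 1, where 8.28% of genes were. None was in mdm34Δ, where 11.8% of genes were, with ATX1 at -0.94 and FTR1 at -0.12 over the same WT replicate 1. CCC2, below the filter in that table, was at 1.71 in mdm34Δ. The siderophore list holds the transporters ARN1, ARN2, SIT1 and ENB1 and the mannoproteins FIT1, FIT2 and FIT3. In mmm1Δ 7 of its 7 members rose, where 2.74% of 6029 genes did. The limma median of this list was 5.51, where the 5 FRE genes tested had 1.47. Of the vacuolar exporters, which take the metal that Fre6 reduces, FTH1 rose by 2.15 (limma adjusted p = 0.0141) and FET5 by 1.88 (0.0162), while SMF3 and CTR2 were not called.

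Relatives outside the family gave a mixed picture. FRE7, a reductase gene under copper control, was between -0.53 in AFT1-C291F and 0.45 in mmm1Δ replicate 2 in all 12 comparisons. FRE8 was higher by 1.47 in AFT1-C291F, by 1.10 in VPS13-D716H sam37Δ and by 1.05 in sam37Δ. It was at 1.41 in mmm1Δ replicate 1 and 1.53 in mdm34Δ, below the filter in both, and at 0.11 in mmm1Δ replicate 2. AIM14, an oxidase gene of the same superfamily, lay between -0.26 and 0.81. In mmm1Δ limma called neither FRE8 nor AIM14, FRE7 was below the filter, and neither tested gene had an unadjusted p under 0.05. The cofactor lists had no call in mmm1Δ by limma: of 8 heme synthesis genes 1 had an unadjusted p under 0.05 and of 8 flavin synthesis genes 2 had, together close to the 19.0% of all genes. HEM15, which inserts the iron into heme, was at -1.51 (limma adjusted p = 0.0642). Of 5 copper genes tested and 7 iron regulator genes none was called either, with 2 and 4 at an unadjusted p under 0.05. With BPS no gene of either cofactor list was higher past 2-fold, and 2 of 8 heme genes and none of 8 flavin genes were lower, where 3.91% of all genes were lower.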

How the data were processed

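Messenger RNA was measured in 12 libraries. The authors deposited 3 tables of FPKM, which together cover 6660 genes. The submitters' processing notes name build sacCer3, Cuffdiff 2.0.2 and TopHat2 2.0.8, without roles. Per the labels' protocols, kits were TruSeq v2 or KAPA stranded, with no word on which library had which. The label of WT replicate 2 names another table than the one whose column carries its name, and the column was used. Depth is unknown: 6 to 14% of 50 low values per library lay within 0.05 of whole multiples of the smallest, so reads were not recovered and no counting error is given.

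Ratios are log2 of (FPKM + 1) within a table, which understates low genes, and 2-fold was the threshold. Shares over all genes use those whose FPKM averaged 5 or more in the libraries compared. Comparisons of single libraries have no p. For mmm1Δ against WT, limma 3.58.1 in R 4.3.3 was fitted with the table as a block, trend on, two-sided, with a Benjamini-Hochberg adjusted p under 0.05, 1 residual and 7.59 prior degrees of freedom. The fit was tested on simulated data. For these 4 libraries the replicate number is the table, and same-numbered libraries of the groups deviated together (r = 0.62 over 6029 genes), so they were taken as paired. The labels do not say that libraries came from separate cultures, so p-values measure the spread between these samples. Only limma calls are described as rises or falls. All members are named in every library. Of other genes, those most like a member were named by rank of r, and listed genes where a count needed them. The members and lists were chosen with earlier results of these data known. Motifs, identities (Biopython 1.88) and coordinates come from the RefSeq genome and annotation of assembly R64, with which the ends of all 6 loci match. No protein sequence is printed. Alternatives were pseudocounts of 0.1 and 5, centring, trend removal (lowess, fraction 0.3), no filter, no block and leaving out a pair.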

Additional observations from a re-analysis of the deposited data

Results flagged for a closer look

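FRE1 had opposite ratios with the VPS13-D716H allele in different backgrounds. The allele over the wild-type allele was at 1.36, a log2 ratio of (FPKM + 1), with MMM1 and SAM37 in place and at -2.20 in mmm1Δ. Read the other way, mmm1Δ over MMM1 was at 2.02 and 1.54 in the pairs with the wild-type VPS13 allele and at -2.02 with VPS13-D716H. The direction turned between backgrounds, each value but the mmm1Δ pairs rests on 1 library a side, and the difference was not tested. Both negative ratios rest on the same VPS13-D716H mmm1Δ library, with FRE1 at an FPKM of 8.59. WT replicate 2, the VPS13-D716H library and mmm1Δ replicate 2 also enter 2 of these ratios each.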

How the results depend on the processing

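The count of members that rose in mmm1Δ, 3 with limma, was 0 with a trend with abundance removed, 0 with no filter and 0 with no replicate block, the last a fit that ignores the pairing by table. Members with an unadjusted p under 0.05 numbered 4 of 5 in the fit as reported, 4 of 5 with the trend removed, 5 of 6 with no filter and 0 of 5 without the block, where the adjusted p of FRE1, FRE3 and FRE5 was 0.9999. FRE2, tested with no filter, had an adjusted p of 0.200. Without the block the tables' difference in scale counts as spread, by construction. Over all genes, 165 rose and 61 fell as reported, 79 and 7 with the trend removed, 20 and 3 with no filter, 23 and 2 without the block, 114 and 26 with a pseudocount of 5, 248 and 124 with 0.1, and 173 and 74 when centred. The cause of the other shifts was not tested. Of 288 recomputed member ratios of single libraries none reversed, and 3 moved by more than the spread of 0.79 between the mmm1Δ pairs, and all are given in the report. Of 48 recomputed counts past 2-fold none moved by over 1.5 times. With 1 pair left out, the mmm1Δ values are those of the other pair, with no test. Depth is unknown, so the low values of the first table have no counting error.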

Other observations

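FRE3 and FRE5 lie on chromosome XV on either side of FIT2 and FIT3, genes for cell wall mannoproteins that hold siderophores. FIT3 and FRE5 point away from each other, with 508 bases between them that hold the strings printed above for FRE5. In VPS13-D716H mmm1Δ over WT replicate 2, FIT2 was at an FPKM of 1760 against 74.1 and FIT3 at 2405 against 52.5, log2 ratios of (FPKM + 1) of 4.55 and 5.49, while FRE3 was at 0.58 and FRE5 at 0.59. RDR1, upstream of FRE3, was at -0.54 and -0.52 in the mmm1Δ pairs.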
